A study of Mus musculus with 8 samples.

Results

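Aminoacyl-tRNA synthetases join each amino acid to its transfer RNA, the step that makes amino acids usable by ribosomes. The 36 synthetase genes described here comprise 20 whose enzymes act in the cytosol and 16 whose enzymes act in mitochondria. They were selected by name as an enzyme family, and the family was chosen from earlier results of the same comparison, so the differences between diets given for them are descriptions and not tests. Every one of the 36 was found among the 34745 genes listed, and every one was among the 13186 genes with enough counts to be tested.

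The samples were 8 tumours formed by B16F10 cells, a mouse melanoma line, after subcutaneous injection into C57BL/6J mice. The 4 HCD samples came from mice on a high cholesterol diet and the 4 ND samples from mice on a normal diet, and cell line, strain and site were shared by both groups. The labels number the samples within each diet and do not say whether each tumour came from its own mouse, so p-values measure the spread between these samples, which may in part be technical. RNA was sequenced from whole tumour tissue, in which fewer cells of a type and less RNA per cell cannot be told apart.

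Mammalian cells keep separate sets of synthetases for cytosolic and mitochondrial translation, both encoded in the nucleus. Most amino acids have a gene for each compartment, while Gars and Kars each encode the enzyme of both compartments and Eprs encodes a fused enzyme for glutamate and proline. Mitochondria charge their glutamine transfer RNA through glutamate and an amidotransferase, so that Qars acts in the cytosol. Several cytosolic synthetases assemble with scaffold proteins into a multi-synthetase complex. When amino acids are scarce or proteins misfold, phosphorylation of eIF2alpha raises translation of the transcription factor ATF4, and genes of cytosolic synthetases are among its known targets.

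ATF4 binds with C/EBP proteins at a composite element known as the CARE, searched here as TGATGNAA on both strands in the RefSeq promoter windows (build GRCm38.p6, 250 bases before to 50 after each start). Of the members, 27 had a window, and Cars, Hars, Lars, Nars, Rars, Vars, Wars, Hars2 and Pars2 had none. The element was present in 5 of 13 cytosolic members with a window (38.5%), in 0 of 14 mitochondrial members and in 4.51% of the 27025 genes in the table. The stretches around each match are shown because they are the members in which the element was found. They run 5′ to 3′ on the strand of the gene, with the match in capitals.
Aars, chr8:111033690-111033777, plus strand: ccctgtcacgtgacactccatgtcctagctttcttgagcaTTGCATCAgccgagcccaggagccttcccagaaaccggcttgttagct
Aars, chr8:111033811-111033871, plus strand: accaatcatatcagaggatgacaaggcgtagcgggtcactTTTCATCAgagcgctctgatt
Gars, chr6:55037931-55038018, plus strand: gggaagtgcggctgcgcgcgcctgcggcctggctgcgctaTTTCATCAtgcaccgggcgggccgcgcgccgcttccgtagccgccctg
Iars, chr13:49682097-49682159, plus strand: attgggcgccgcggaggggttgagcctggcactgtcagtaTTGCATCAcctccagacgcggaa
Tars, chr15:11399629-11399713, minus strand: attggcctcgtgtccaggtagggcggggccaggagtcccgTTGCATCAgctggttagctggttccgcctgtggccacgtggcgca
Yars, chr4:129189866-129189932, plus strand: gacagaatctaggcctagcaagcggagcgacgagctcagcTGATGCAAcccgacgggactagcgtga

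The Yars match lay on the strand of the gene and the others on the opposite strand, so their capitals show the reverse complement of the element. Counted from the start as position 1, with no position 0, the first bases of the matches stood at -112 and 10 in Aars, -30 in Gars, 8 in Iars, -15 in Tars and 4 in Yars. Matches were also present in 5 of 16 windows of ATF4 regulators and targets, those of Trib3, Chac1, Asns, Slc7a11 and Nupr1. An E-box, CACGTG, which reads the same on both strands and is bound by MYC and related factors, was present in 4 of 13 cytosolic windows (Aars, Farsb, Iars and Tars), in 1 of 14 mitochondrial windows (Ears2) and in 8.09% of all genes. The CCAAT box, CCAAT, was present in 7 of 13 cytosolic and 6 of 14 mitochondrial windows, against 41.1% of all genes. None of these 3 motifs contains another. A match describes letters and does not show binding, and a window without one says only that these letters are not in it.

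Total counts ran from 16137885 to 17722093 in HCD libraries and from 14599222 to 17637202 in ND libraries. ND 2, ND 3 and ND 4 stood apart from the other 5 libraries in the number of genes with a count, 18088 to 18224 against 16285 to 16745, and 406 to 427 olfactory and vomeronasal receptor genes had a count in these 3 against 8 to 13 elsewhere. Transcripts of the mitochondrial genome took 12.2% ± 0.719 of counts in HCD tumours and 14.0% ± 0.481 in ND tumours (SD, n = 4 each; exact permutation test, two-sided, p = 0.0286, which is the lowest value this design can give, and 0.0858 after adjustment over 9 library measures). Melanocyte markers were abundant, as the melanoma label says: Dct, Pmel, Tyrp1, Tyr, Mlana, Slc45a2 and Sox10 summed to 26682 to 30940 CPM (counts scaled to library size with TMM factors) in HCD and 29135 to 30641 CPM in ND. Macrophage markers summed to 472 to 619 CPM in HCD and 313 to 523 CPM in ND, with log2 fold changes above 0 for 8 of 8. Endothelial markers summed to 75.1 to 82.9 CPM in HCD and 54.0 to 72.1 CPM in ND, with 5 of 5 above 0. In the exact permutation test, the endothelial sum and the number of genes with a count also had p = 0.0286 (0.0858 adjusted). The remaining library measures had p from 0.114 to 0.714 in that test. Fibroblast markers ran from 59.5 to 269 CPM in HCD and from 45.0 to 251 CPM in ND, with 5 of 5 tested above 0 and Lum at 0 in HCD 4 and ND 4. T cell markers were at 3.40 to 5.15 CPM in HCD and 0.904 to 5.31 CPM in ND, with 2 of 2 tested above 0 and Trbc2 at 0 in ND 2. Skeletal muscle markers were at 3.21 to 5.71 CPM in HCD and 4.23 to 50.8 CPM in ND, with 5 of 5 tested below 0. Of these muscle genes, Myh4 was at 0 in HCD 1 and HCD 4, and Tnnt3 in HCD 1, HCD 2 and HCD 4. Their part in the differences described for the synthetases was not tested.

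Levels per gene length were higher for cytosolic than for mitochondrial members. On the deposited FPKM scale, the median level over the 8 libraries was 25.5 for cytosolic members and 2.70 for mitochondrial members, a ratio of 9.43 that ran from 7.60 to 11.8 in single libraries. The lengths behind the FPKM values differ from annotated transcripts for several genes, and per kilobase of the coding transcript in GENCODE M21 the ratio of medians was 9.0. Together the 20 cytosolic genes took 0.423% to 0.439% of counts in HCD tumours and 0.427% to 0.470% in ND tumours.

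The 4 highest levels belonged to Gars at 137 ± 10.7 FPKM, Nars at 128 ± 9.94, Kars at 126 ± 7.82 and Sars at 108 ± 10.1 (SD over 8 libraries). These genes encode the enzymes for glycine, asparagine, lysine and serine, and neighbours among the first 3 differed by less than their SDs. Tars, for threonine, followed at 70.3 ± 3.61 FPKM, then Hars, for histidine, at 49.6 ± 1.21 and Aars, for alanine, at 47.5 ± 2.09, which also lay within their summed SDs. Farsb, the beta subunit of the phenylalanine enzyme, was at 36.4 ± 2.62 FPKM, whereas Farsa, its alpha subunit, had the lowest cytosolic level at 7.34 ± 0.928. The other cytosolic genes ran from 10.2 FPKM for Qars to 26.3 FPKM for Lars. Their order depended on the length used: per kilobase of coding transcript, Sars ranked 1, Eprs 6, Qars 9, Tars 12 and Lars 20, against FPKM ranks of 4 for Sars, 15 for Eprs, 20 for Qars, 5 for Tars and 9 for Lars.

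Among mitochondrial genes, Sars2 had the highest level at 11.7 ± 1.56 FPKM, followed by Fars2 at 8.41 ± 1.13, Cars2 at 8.03 ± 0.611 and Iars2 at 6.51 ± 0.411. The lowest were Yars2 at 1.06 ± 0.146, Pars2 at 0.930 ± 0.257 and Wars2 at 0.669 ± 0.246 FPKM, neighbours in this order differing by less than their summed SDs. The compartments met at their edges in FPKM, where 3 mitochondrial genes lay above Farsa. Per kilobase of coding transcript no mitochondrial gene lay above the lowest cytosolic gene. For all 13 amino acids that have a separate gene in each compartment, the cytosolic gene had more FPKM, from 1.69 times for cysteine to 109 times for asparagine. The size of these ratios and the amino acids at either end depended on the length used. In CPM per kilobase of coding transcript, Nars stood at 122.8 against 2.79 for Nars2, and Cars at 25.7 against 7.80 for Cars2. There the ends were Iars at 37.8 against 13.5 for Iars2, and Wars at 68.7 against 1.41 for Wars2.

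**Figure D1:**
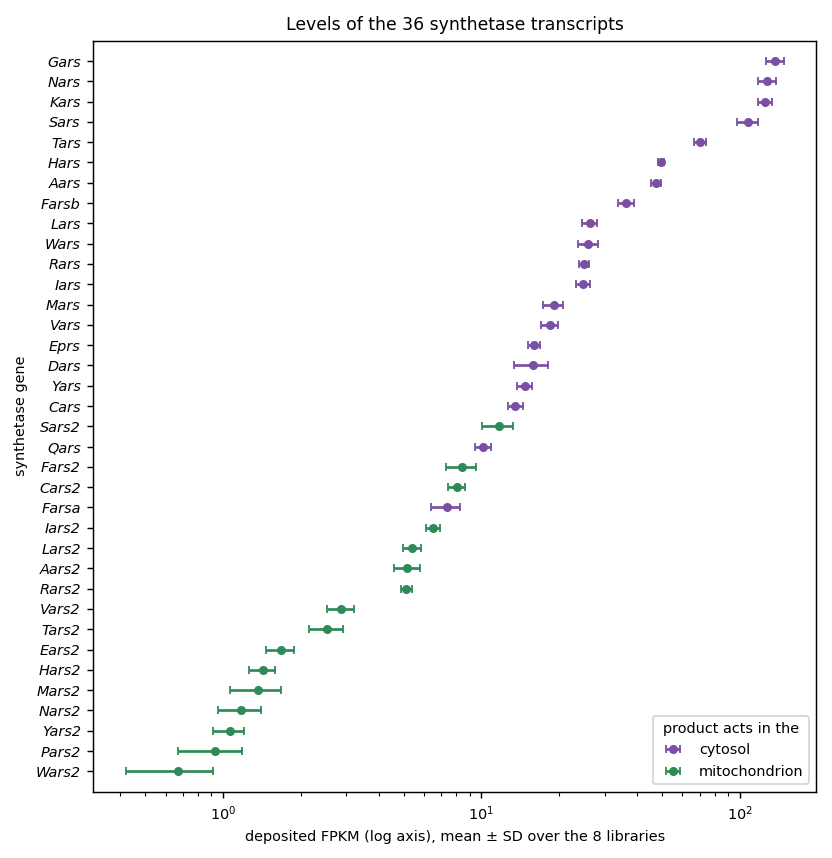
Mean deposited FPKM of each synthetase gene on a log axis, with whiskers for the SD over the 8 libraries, cytosolic genes in purple and mitochondrial genes in green. Cytosolic genes run from 7.34 (Farsa) to 137 (Gars) and mitochondrial genes from 0.669 (Wars2) to 11.7 (Sars2).

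Between diets, cytosolic synthetase transcripts stood slightly lower in HCD tumours, with 16 of 20 below 0 on the log2 scale, a median log2 fold change of -0.10 (HCD over ND) and a range from -0.24 for Sars to 0.11 for Farsb. Mitochondrial synthetases lay to the other side, with 5 of 16 below 0, a median of 0.06 and a range from -0.29 for Fars2 to 0.42 for Mars2. Over all genes tested, 48.9% were below 0 and the median was 0.005. The difference between the means of the compartments, cytosolic minus mitochondrial, was -0.13 on the log2 scale. ND 2 to ND 4 were given a term of their own in an alternative fit, which leaves ND 1 as the ND library against HCD: there 15 of 20 cytosolic members were below 0 with a median of -0.11, and 7 of 16 mitochondrial members with a median of 0.01. These values chose the family and support nothing further.

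No member passed an adjusted p of 0.05 in edgeR's quasi-likelihood test, in which 0.182% of all genes did. At an unadjusted p under 0.05 the same test had 5 cytosolic members and 1 mitochondrial member lower, where 7.49% of all genes were lower, and 1 mitochondrial member higher, where 7.21% were higher. DESeq2 called 1 member, Gars, beside 3.31% of all genes, and limma-voom called 0, beside 0.144% of all genes. All 4 HCD libraries lay below all 4 ND libraries for 5 cytosolic members (4.73% of all genes) and above them for 0 members (4.94% of all genes).

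**Figure D2:**
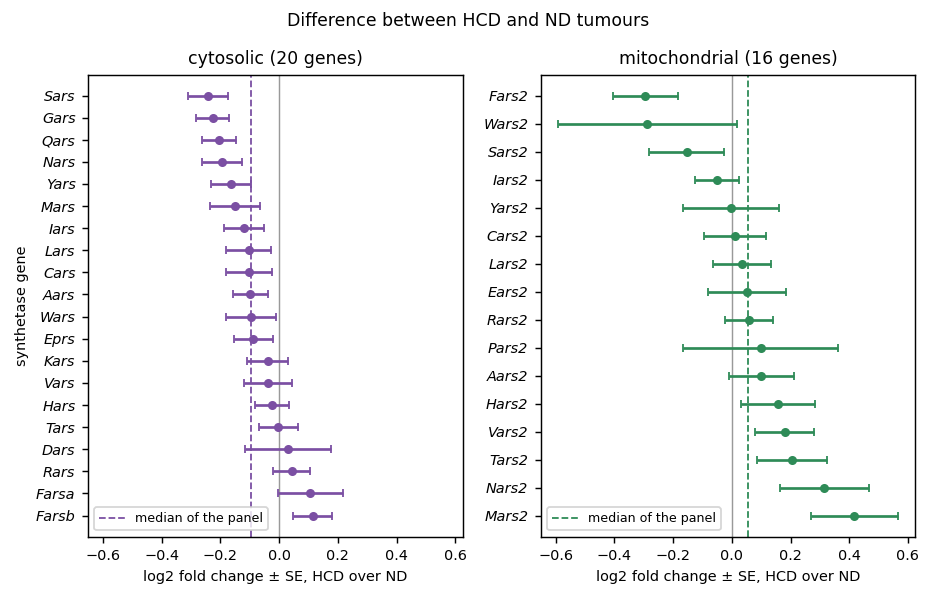
Log2 fold change of each synthetase gene, HCD over ND, with whiskers for the standard error from edgeR and a dashed line at the median of each panel. Points left of 0 are lower in HCD: 16 of 20 cytosolic genes and 5 of 16 mitochondrial genes lie there.

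The 5 cytosolic genes with the largest differences encode the enzymes for serine, glycine, glutamine, asparagine and tyrosine. Sars, the serine enzyme, had 599, 688, 658 and 624 CPM in HCD 1 to HCD 4, against 799.5, 692, 765 and 780.4 CPM in ND 1 to ND 4. The groups did not overlap, but HCD 2 and ND 2 nearly met, and the log2 fold change was -0.24 ± 0.068 (SE, n = 4 each). Gars, the glycine enzyme of both compartments, had 470.3, 460.1, 454 and 465 CPM in HCD 1 to HCD 4, against 548, 500.0, 556 and 559.8 CPM in ND 1 to ND 4. Its HCD libraries lay close together, with a coefficient of variation of 1.49% against 5.13% in ND, ND 2 was the lowest ND library, and the log2 fold change was -0.23 ± 0.057.

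Qars, the glutamine enzyme and a member of the multi-synthetase complex, had 129, 135, 129 and 125 CPM in HCD 1 to HCD 4, against 152, 147, 154 and 143 CPM in ND 1 to ND 4. The groups were apart, the coefficient of variation was 3.16% in HCD and 3.28% in ND, and the log2 fold change was -0.20 ± 0.058. Nars, the asparagine enzyme, had 318, 300.4, 301 and 338 CPM in HCD 1 to HCD 4, against 341, 339.9, 371 and 387 CPM in ND 1 to ND 4. HCD 4 came close to ND 1 and ND 2, and the log2 fold change was -0.20 ± 0.068. Yars, the tyrosine enzyme, had 112, 104, 108 and 112 CPM in HCD 1 to HCD 4, against 131, 113, 126 and 119 CPM in ND 1 to ND 4. The groups touched without overlapping between HCD 1 and ND 2, with a log2 fold change of -0.16 ± 0.068.

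Mars, the methionine enzyme, shares 68 bases of exon (1.99% of its exons) with Ddit3 on the opposite strand, and with no strand setting given for the counts, reads from these bases cannot be assigned to either gene. Mars had 91.6, 77.4, 80.4 and 89.4 CPM in HCD 1 to HCD 4, against 100.3, 88.7, 102 and 85.3 CPM in ND 1 to ND 4. The groups overlapped, with ND 2 and ND 4 below HCD 1 and HCD 4, and the log2 fold change was -0.15 ± 0.086.

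The other cytosolic members below 0 were Iars at -0.12, Lars and Cars at -0.10 each, Aars at -0.10, Wars at -0.10, Eprs at -0.09, Kars and Vars at -0.04 each, Hars at -0.02 and Tars at -0.002. These encode enzymes for isoleucine, leucine, cysteine, alanine, tryptophan, glutamate with proline, lysine, valine, histidine and threonine, and the groups overlapped for each of them. Above 0 were Dars at 0.03, Rars at 0.04 and the phenylalanine subunits Farsa at 0.11 and Farsb at 0.11, also with overlapping groups. Dars, for aspartate, ran from 66.9 to 86.3 CPM in HCD, while in ND it had the widest spread of the cytosolic genes, between 55.7 CPM in ND 1 and 92.2 CPM in ND 3, a coefficient of variation of 21.3%. Hars had the narrowest spread of the cytosolic genes in ND, at 2.36%. It varied by 2.54% in HCD, where Gars was narrowest at 1.49%. Hars and Hars2 share 195 exon bases on opposite strands, and Farsb shares 248 with Sgpp2. Aars shares 1326 exon bases (14.3% of its exons) with Exosc6 on the same strand. Exosc6 is not among the genes listed, so reads from these bases cannot be assigned to either gene.

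The log2 fold changes of the 8 complex members (Dars, Eprs, Iars, Kars, Lars, Mars, Qars and Rars) had a median of -0.10 with 6 of 8 below 0, and those of the 12 genes outside it also had a median of -0.10 with 10 of 12 below 0. By catalytic fold, 8 of 9 class I genes were below 0 with a median of -0.10, and 7 of 10 class II genes with a median of -0.03, Eprs holding a domain of each class. The scaffolds of the complex went separate ways: Aimp1 had a log2 fold change of -0.29, Aimp2 of -0.08 and Eef1e1 of 0.30. Of these 3 scaffolds, 0 were called by edgeR or DESeq2, and Aimp1 and Eef1e1 had an unadjusted p under 0.05. At that threshold 7.49% of all genes were lower and 7.21% higher. The 5 cytosolic genes with a CARE match had a median log2 fold change of -0.12, from -0.23 to -0.002, and the 8 with a window and no match had a median of -0.06, from -0.24 to 0.11. Cytosolic members without a window are in neither set. Sars, with the lowest cytosolic value, had no match, and Tars, at -0.002, had one. A link between the element and the differences was not tested.

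Mitochondrial synthetases had fewer reads and wider errors. Their counts fell as low as 59 for Pars2 in an ND library, and the median coefficient of variation was 11.5% in HCD and 9.45% in ND, against 6.17% in HCD and 5.67% in ND for cytosolic members. Their median standard error on the log2 scale was 0.122, compared with 0.068 for cytosolic members.

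Mars2, the mitochondrial methionine enzyme, had 18.8, 14.0, 17.8 and 20.2 CPM in HCD 1 to HCD 4, against 13.2, 11.9, 11.6 and 16.4 CPM in ND 1 to ND 4. ND 4 lay above HCD 2, so the groups overlapped, and the log2 fold change of 0.42 ± 0.150 was the highest of the 36. Nars2, for asparagine, had 13.1, 11.8, 9.63 and 12.3 CPM in HCD 1 to HCD 4, against 8.30, 10.2, 11.1 and 7.98 CPM in ND 1 to ND 4. HCD 3 fell among the ND libraries, and the log2 fold change was 0.31 ± 0.151. Fars2, the single-chain mitochondrial phenylalanine enzyme, had 17.7, 15.02, 16.7 and 14.9 CPM in HCD 1 to HCD 4, against 20.8, 17.4, 18.7 and 22.1 CPM in ND 1 to ND 4. HCD 1 lay just above ND 2 and the other 3 HCD libraries below every ND library, with a log2 fold change of -0.29 ± 0.110. Fars2 shares 501 exon bases with Nrn1 and 115 with Lyrm4, and Nars2 shares 284 with C230038L03Rik.

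The other mitochondrial members above 0 were Tars2 at 0.20, Vars2 at 0.18, Hars2 at 0.16, Aars2 and Pars2 at 0.10 each, Rars2 at 0.06, Ears2 at 0.05, Lars2 at 0.04 and Cars2 at 0.01. Below 0 were Wars2 at -0.29, Sars2 at -0.15, Iars2 at -0.05 and Yars2 at -0.003. The groups overlapped for all of them. The Wars2 value carried a standard error of 0.304, with 11.4 CPM in ND 4 against 3.98 to 6.24 in the other ND libraries. Iars2 shares 22.9% of its exon bases with Rab3gap2 on the opposite strand, the largest overlap among the members.

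**Figure D3:**
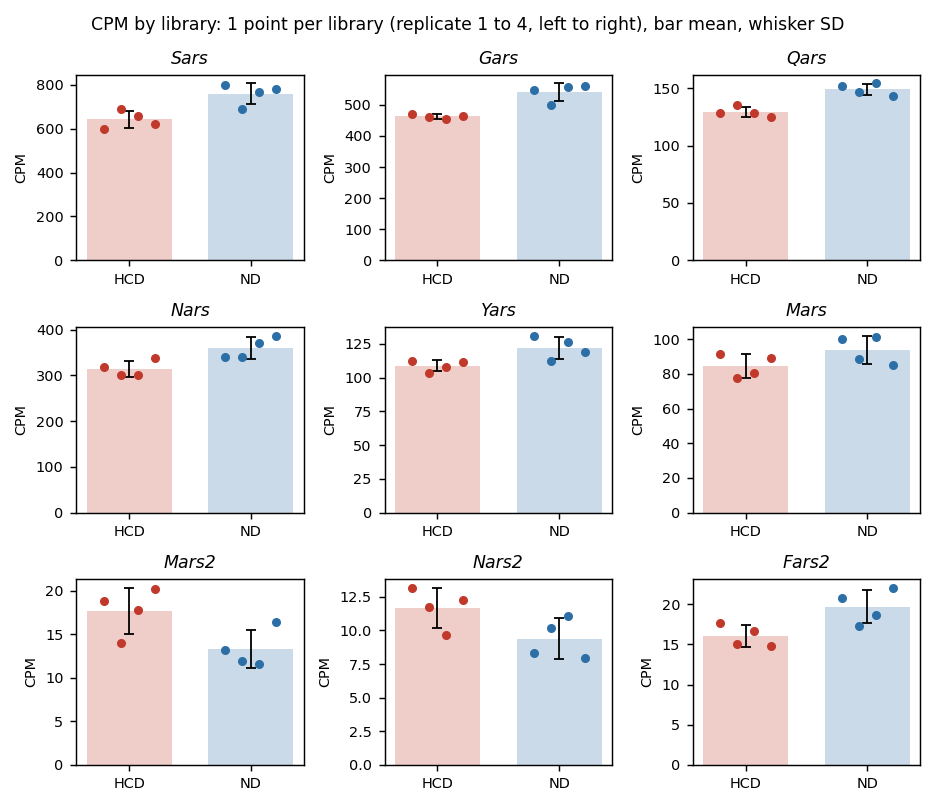
CPM of 9 synthetase genes, HCD left of ND, with 1 point per library in replicate order, bars at the mean and whiskers for the SD (n = 4 each). Sars, Gars, Qars, Nars and Yars have every HCD point below every ND point, while Mars, Mars2, Nars2 and Fars2 overlap.

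Set against its own mitochondrial partner in the same library, the cytosolic gene was relatively lower in HCD for 12 of the 13 amino acids with a separate gene of the same kind in each compartment, and the median difference in log2 ratio was -0.16. Wars over Wars2 differed by 0.12. All of these ratios combine the values that chose the family, and no share over other gene pairs was computed for comparison. Pairs outside these 13 were Eprs over Ears2 at -0.13, Eprs over Pars2 at -0.21, Farsa over Fars2 at 0.39 and Farsb over Fars2 at 0.41, so both phenylalanine subunits lay to the other side. Nars over Nars2 had log2 ratios of 4.596, 4.68, 4.97 and 4.79 in HCD 1 to HCD 4, against 5.36, 5.06, 5.06 and 5.60 in ND 1 to ND 4, with no overlap. Lars over Lars2 also did not overlap, at 2.10 to 2.26 in HCD and 2.29 to 2.44 in ND. Of the 13 pairs, 2 were thus lower in HCD without overlap and 0 were higher. The largest difference, -0.57, was that of Mars over Mars2, where ND 4 at 2.38 fell within the HCD range of 2.15 to 2.47. Farsb over Fars2 did not overlap either, at 2.81 to 3.21 in HCD against 2.43 to 2.80 in ND, while Farsa over Fars2 did, at 1.26 to 1.99 in HCD against 1.15 to 1.33 in ND. Summed over members, cytosolic counts were 13.4 to 14.7 times mitochondrial counts in HCD tumours and 14.9 to 15.98 times in ND tumours.

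The library values show how far single tumours carried these differences. As a mean over the 20 cytosolic genes of log2 CPM minus the average of the gene, HCD 1 to HCD 4 stood at -0.04, -0.03, -0.08 and -0.00, against 0.05, -0.04, 0.10 and 0.05 in ND 1 to ND 4. ND 2 thus lay among the HCD libraries, and it was the lowest ND library for 15 of 20 cytosolic genes. For the 16 mitochondrial genes the values were 0.08, 0.09, -0.03 and -0.02 in HCD 1 to HCD 4, against -0.03, -0.10, -0.00 and 0.02 in ND 1 to ND 4. Here HCD 1 and HCD 2 stood above all ND libraries and HCD 3 and HCD 4 did not.

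The ATF4 list, which like the other lists was drawn up with earlier results of these data known, held 17 genes with enough counts to be tested, and 17 of 17 had log2 fold changes below 0, with a median of -0.32. Over all genes tested, 48.9% were below 0. At an unadjusted p under 0.05 in edgeR's test 12 of the list were lower, where 7.49% of all genes were. DESeq2 called 8 (3.31% of all genes), limma-voom called 1 (0.144%) and edgeR called 2 (0.182%). Passing the adjusted threshold in edgeR were Trib3, a pseudokinase, and Ddit3, which encodes the transcription factor CHOP. Trib3 had 78.1, 76.1, 82.7 and 79.1 CPM in HCD 1 to HCD 4, against 152, 121, 169.9 and 173 CPM in ND 1 to ND 4, a log2 fold change of -0.96 ± 0.107 (adjusted p = 0.0225). Ddit3 had 50.6, 54.1, 53.0 and 51.7 CPM in HCD 1 to HCD 4, against 88.2, 67.6, 84.0 and 97.6 CPM in ND 1 to ND 4, a log2 fold change of -0.69 ± 0.104 (adjusted p = 0.0459). ND 2 was the lowest ND library for both, as it was for 14 of the 17 genes, and with HCD 4 or ND 4 left out edgeR called 0 genes of any kind. Atf4 itself had a log2 fold change of -0.42 ± 0.100 (adjusted p = 0.115), Eif4ebp1, a repressor of cap-dependent translation, of -0.32 ± 0.068 (adjusted p = 0.0857), and Asns, asparagine synthetase, of -0.28 ± 0.096 (adjusted p = 0.227). The mean deviations of the list were -0.21, -0.28, -0.20 and -0.12 in HCD 1 to HCD 4, against 0.27, -0.06, 0.26 and 0.34 in ND 1 to ND 4. ND 2 lay between the HCD libraries and the other ND libraries.

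Among the kinases that phosphorylate eIF2alpha, Gcn1l1, which activates the kinase Eif2ak4, and the phosphatase subunits that reverse the phosphorylation, 3 of 7 genes were below 0 with a median of 0.05, and 0 were called by edgeR, 0 by DESeq2, with 0 at an unadjusted p under 0.05. The cytosolic elongation factors, among them Eef1a1, which takes charged transfer RNA to the ribosome, and Eef2, which drives translocation, had 3 of 6 below 0 and a median of -0.02, with 0 called by either tool and 0 at an unadjusted p under 0.05. Mitochondrial translation factors had 7 of 9 above 0 and a median of 0.11. Among them were Mtrf1l, a release factor, at 0.52, Tufm, the elongation factor that delivers charged transfer RNA in mitochondria, at 0.37, and Gfm1, a translocation factor, at 0.17. Of these translation factors, 0 were called by edgeR or DESeq2. At an unadjusted p under 0.05, 3 were higher, where 7.21% of all genes were. The mean deviations of this list were above 0 in all 4 HCD libraries (0.05 to 0.10) and below 0 in all 4 ND libraries (-0.15 to -0.04). Partners of mitochondrial charging, the amidotransferase subunits Gatb, Gatc and Qrsl1 and the formyltransferase Mtfmt, were 2 below and 2 above 0 with a median of 0.01. Enzymes that clear mischarged transfer RNA (Aarsd1, Dtd1, Dtd2 and Prorsd1) had 3 of 4 above 0 and a median of 0.04. Neither of these lists had a gene called by edgeR or DESeq2, or at an unadjusted p under 0.05. Tarsl2, a threonine enzyme outside the 36, had a log2 fold change of 0.00.

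**Figure D4:**
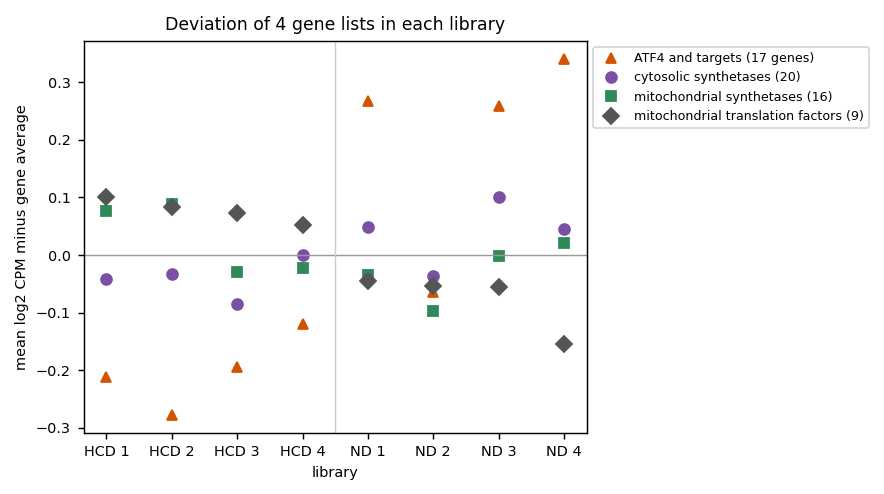
Mean over each list of log2 CPM minus the average of the gene, by library, HCD left of ND. ATF4 and its targets lie from -0.28 to -0.12 in HCD and from -0.06 to 0.34 in ND, cytosolic synthetases within -0.08 to 0.10, and ND 2 sits below the other ND libraries for both.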

How the data were processed

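Paired-end RNA-seq of 8 tumours was deposited as whole-number counts per Ensembl gene and as FPKM, per the file headers; the counts were not normalized, and the deposited FPKM divide each count by a gene length and the total of the library. TopHat2 2.0.9, HTSeq, edgeR, CASAVA 1.8 and build mm10 were used per the submitters' processing notes, which state neither role nor order; for annotation release and strand setting, nothing is stated in what was used here. Libraries were made from total RNA with a TruSeq RNA kit, per the labels' protocols.

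Diet groups and replicate numbers came from the sample titles. Symbols, coordinates and exon overlaps came from GENCODE M21 (GRCm38), which named 34267 of 34745 genes. Counts were tested with edgeR 4.0.16 (quasi-likelihood, TMM, expression filter with minimum count 10 and total 15; R 4.3.3) across 13186 genes with diet as the term and Benjamini-Hochberg adjustment at 0.05. DESeq2 1.42.0 and limma 3.58.1 (voom) were alternatives, with other scalings, no filter, a replicate block, a term for ND 2 to ND 4, GC and length offsets, and each library left out. The fit was also run on simulated counts drawn from its own dispersions, with changes larger than that of any member in edgeR. That run does not show how the fit handles differences as small as those of the members. Chi-square over degrees of freedom between libraries of the same diet was 14.5 to 37.6, where sampling alone gives about 1, so each counted as 1 sample. FPKM were used for levels only. The members and lists were chosen with earlier results of these data known. All 36 members are named; the 5 cytosolic and 3 mitochondrial ones with the largest absolute log2 fold change, and Mars, are given in full, with up to 3 genes of smallest p from each other list and Atf4, Asns, Ddit3 and Trib3 by name.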

Additional observations from a re-analysis of the deposited data

Results flagged for a closer look

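Within a group of 4 libraries, 5 values of members stood far from the other 3 by Dixon's criterion for 4 values (gap to the nearest over the whole range), out of 76 groups examined; chance gives such a value in about 1 in 20 groups. Farsb was low in HCD 1, at 124.1 CPM, against 137.5 to 139.0 CPM in the other HCD libraries. Ears2 was high in HCD 2, at 14.48 CPM, against 10.38 to 10.79 CPM in the others. In ND, Hars was high in ND 2 at 102.9 CPM (98.0 to 98.53 in the others), Iars in ND 3 at 183.9 CPM (169.8 to 172.0 in the others) and Rars in ND 4 at 102.4 CPM (95.47 to 96.13 in the others). Each falls in a different library.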

How the results depend on the processing

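The number of genes called over the whole table, 24, moved under several settings: 93 without the expression filter, 428 with DESeq2, 46 with GC and length offsets, 5 with a term for ND 2 to ND 4, 4 without mitochondrially encoded genes, and 0 to 12 with each library left out in turn. With the replicate number as a block it was 0 (1634 at an unadjusted p under 0.05). Deviations of same-numbered libraries from their group means had correlations of -0.07 to 0.11. No HCD library correlated best with the ND library of its own number, and of the ND libraries only ND 4 correlated best with its own. The numbers were therefore not taken to pair the samples. DESeq2 called 1 cytosolic synthetase lower, against 0 in edgeR. Over the settings tried, 14 to 17 of 20 cytosolic members were below 0, with a median log2 fold change of -0.13 to -0.06, and 4 to 7 of 16 mitochondrial members, with a median of 0.01 to 0.08. Of 36 members, 26 kept 1 sign over 17 settings (17 of 20 cytosolic, 9 of 16 mitochondrial). Dars ran from -0.09 to 0.47 and Pars2 from -0.11 to 0.86. Depth limits Wars2, Pars2 and Yars2 most, whose counts lay between 59 and 164 per library. The levels per kilobase of coding transcript were added after seeing the data.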
